A study of Mus musculus with 9 samples.

Results

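The heavy chain of an antibody begins with a V segment, and the mouse genome carries a long array of such segments, the Ighv genes, on chromosome 12. Counts over these genes were examined in 9 RNA libraries of mouse cells sorted as long-term hematopoietic stem cells (LT-HSCs). The count tables list 185 rows whose symbol starts with Ighv, between positions 113572927 and 116010093 on mm10. The 97 segments with a summed count of 50 or more over the 9 libraries were taken as members. They held 99.88% of all counts over Ighv rows. A further 44 rows had summed counts between 1 and 49, and 44 rows were at 0. Of the 97 members, 95 are annotated as V genes and 2, Ighv1-2 and Ighv1-83, as pseudogenes. The nearest segments outside the threshold were Ighv8-6 with 35 counts and Ighv1-79 with 39, and the nearest inside were Ighv1-67 with 53 and Ighv1-2 with 66.

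A heavy chain gene is assembled in developing B cells, when the RAG recombinase joins a V, a D and a J segment on the same chromosome. Every descendant of such a cell transcribes the joined V segment together with a constant region such as Ighm or Igha. Plasma cells, the antibody-secreting end of the lineage, transcribe these genes most strongly. Stem cells have not joined the array, and unjoined V segments can be transcribed at low level in early B cell precursors. Segments are grouped into families by sequence. The first number of a symbol names the family, and within a family the second generally rises with distance from the D and J segments.

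The 3 groups each held 3 libraries of wild-type C57BL/6 mice. Control mice were untreated. The 5-FU+Saline and 5-FU+FMT mice had all been given 250 mg/kg of 5-FU, that is 5-fluorouracil, an antimetabolite toxic to cycling cells. They then received saline, elsewhere called PBS in the labels, or FMT, a treatment whose abbreviation is not expanded in the labels, at 5 mg/kg into a vein on days 1, 4 and 7, and cells were sorted on day 8. The gate was negative for lineage markers, positive for Sca1, c-Kit and CD150, and negative for a last marker that the labels write as C48. Neither the number of mice behind a library nor their sex is given, so the spread between libraries may be technical, and p-values measure that spread alone.

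Total counts were 11098031 to 19270976 per library, with 35105 to 77414 of them on the 97 members. Counts of each pair of libraries of a group differed by more than counting noise over the members (chi-square per degree of freedom 1.69 to 2.76). Libraries were thus not splits of the same counts, and each entered the fit on its own. Separate mice are not shown by this. The spread fitted between libraries of a group over all genes tested (edgeR's biological coefficient of variation) was 3.74%. Levels are given as CPM, the count divided by the TMM-scaled library size and scaled so that libraries of different depth compare. The sort label was checked against 10 stem cell genes, all of which were detected in every group, with a summed level of 2041 to 2061 CPM in Control, 1284 to 1299 after 5-FU+Saline and 1569 to 1615 after 5-FU+FMT. Slamf1, which encodes the sort marker CD150, was at 8.35 ± 1.16, 34.5 ± 2.06 and 24.4 ± 1.76 CPM. The 16 plasma cell markers, genes of another cell type than the sorted one, summed to 3703 to 3821, 2436 to 2485 and 2711 to 2783 CPM. Jchain, the joining chain of secreted IgA and IgM, took most of that sum. The 14 early B cell markers summed to 513.4 to 537.4, 1515 to 1526 and 907.9 to 964.4 CPM. No gene of these lists was at 0 in a group. Xist, the RNA of the inactive X chromosome in female cells, stood at 0.870 ± 0.421 CPM in Control, 1201 ± 20.2 after 5-FU+Saline and 682 ± 19.8 after 5-FU+FMT, so the groups also differ in sex-linked RNA. The Y-linked gene Ddx3y stood at 168 ± 4.23, 38.9 ± 2.58 and 100 ± 2.28 CPM in the same order. Eif2s3y, Uty and Kdm5d, also Y-linked, ordered the groups as Ddx3y did. Every library given 5-FU thus held both Xist and Y-linked RNA. Whether libraries pooled mice of both sexes was not tested. Effects of treatment, of the sex of the mice and of the cells a library held cannot be told apart here, and this holds for each comparison below.

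The sequences of 4 pairs of segments are shown because the results below turn on them. Each is the V exon without the first 11 leader bases, from GENCODE M21 transcripts on GRCm38 (the same assembly as mm10), minus strand, and read 5′ to 3′. Capitals mark bases that differ from the pair's other segment or have no partner in the alignment. Ighv1-9 (chr12:114583569-114583862) led the Control libraries. It is shown beside Ighv1-77 (chr12:115861867-115862160), the nearest among other members with a sequence, from which it differs at 30 of 294 bases.
Ighv1-9: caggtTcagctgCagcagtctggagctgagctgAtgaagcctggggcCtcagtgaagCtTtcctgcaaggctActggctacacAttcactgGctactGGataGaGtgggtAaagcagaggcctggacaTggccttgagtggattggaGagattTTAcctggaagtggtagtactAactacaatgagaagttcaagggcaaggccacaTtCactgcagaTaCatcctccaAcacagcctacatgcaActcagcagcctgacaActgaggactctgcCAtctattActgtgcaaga
Ighv1-77: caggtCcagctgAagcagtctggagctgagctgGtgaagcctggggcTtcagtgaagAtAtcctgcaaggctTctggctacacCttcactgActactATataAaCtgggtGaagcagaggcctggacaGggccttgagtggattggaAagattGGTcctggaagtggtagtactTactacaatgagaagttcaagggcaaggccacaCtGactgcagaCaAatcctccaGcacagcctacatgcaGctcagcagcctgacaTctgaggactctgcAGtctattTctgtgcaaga
Ighv1-20 (chr12:114723772-114724065) and Ighv1-37 (chr12:114896238-114896531) differ at 4 of 294 bases. Both were present in 5-FU+FMT, while in Control Ighv1-20 was present and Ighv1-37 nearly absent.
Ighv1-20: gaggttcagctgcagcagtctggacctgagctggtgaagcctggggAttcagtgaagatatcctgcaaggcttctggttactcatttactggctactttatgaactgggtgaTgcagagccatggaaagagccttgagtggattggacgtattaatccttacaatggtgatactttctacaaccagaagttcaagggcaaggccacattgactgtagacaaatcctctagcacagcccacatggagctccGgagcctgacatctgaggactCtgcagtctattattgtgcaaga
Ighv1-37: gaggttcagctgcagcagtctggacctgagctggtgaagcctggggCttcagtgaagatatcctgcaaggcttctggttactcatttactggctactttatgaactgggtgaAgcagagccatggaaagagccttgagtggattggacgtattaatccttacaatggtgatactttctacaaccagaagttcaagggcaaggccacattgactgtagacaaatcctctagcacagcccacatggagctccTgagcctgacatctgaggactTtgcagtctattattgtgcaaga
Ighv11-2 (chr12:114048241-114048536) and Ighv11-1 (chr12:113981879-113982174) differ at 4 of 296 bases and stood far apart in level.
Ighv11-2: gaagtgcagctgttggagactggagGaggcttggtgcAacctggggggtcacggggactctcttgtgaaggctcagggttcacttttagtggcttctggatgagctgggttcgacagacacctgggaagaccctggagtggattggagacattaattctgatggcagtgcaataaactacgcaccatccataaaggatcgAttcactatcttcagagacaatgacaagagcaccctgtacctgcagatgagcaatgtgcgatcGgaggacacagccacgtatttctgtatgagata
Ighv11-1: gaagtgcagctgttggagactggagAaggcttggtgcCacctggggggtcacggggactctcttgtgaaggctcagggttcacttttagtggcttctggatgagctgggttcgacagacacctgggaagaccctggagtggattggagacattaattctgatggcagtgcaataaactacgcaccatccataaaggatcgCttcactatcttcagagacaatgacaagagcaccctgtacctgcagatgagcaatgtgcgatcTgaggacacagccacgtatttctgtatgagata
Ighv6-6 (chr12:114434788-114435087) and Ighv6-3 (chr12:114391712-114392010) are the 2 members of their family. They differ at 22 of 300 aligned columns, with 1 base unpaired, and the groups ordered them differently.
Ighv6-6: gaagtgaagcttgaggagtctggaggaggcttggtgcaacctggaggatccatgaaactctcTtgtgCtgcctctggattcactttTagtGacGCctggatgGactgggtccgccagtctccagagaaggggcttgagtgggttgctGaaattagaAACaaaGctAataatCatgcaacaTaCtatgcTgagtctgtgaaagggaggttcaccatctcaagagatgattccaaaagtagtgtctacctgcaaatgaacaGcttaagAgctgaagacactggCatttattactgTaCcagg
Ighv6-3: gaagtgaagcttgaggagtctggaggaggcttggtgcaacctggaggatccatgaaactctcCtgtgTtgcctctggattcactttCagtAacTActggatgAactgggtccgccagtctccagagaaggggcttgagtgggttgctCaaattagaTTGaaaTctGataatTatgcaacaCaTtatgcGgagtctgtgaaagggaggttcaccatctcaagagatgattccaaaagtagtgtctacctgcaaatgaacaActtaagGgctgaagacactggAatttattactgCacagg

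Sequence likeness limits how well counts separate segments. Among the 95 members with a sequence, the median identity to the nearest other V segment with a sequence was 95.27%. In 11 members it was 98% or more, so reads over shared stretches could have been placed on a neighbour or left out. Ighv1-62-2 matched Ighv1-71, which is not a member, over 100% of its 302 bases. Ighv1-72 matched Ighv1-62-3 at 99.32%. Members of 1 family had a median identity of 85.71% and members of different families 59.8%, so the family sums below are less exposed to this than single segments. Ighv1-9 has no such twin among the 111 Ighv segments with a sequence, with 90.14% identity to the nearest of them. The rest of the 185 rows had no sequence here and were not compared.

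V segment RNA as a whole was highest in Control. The 97 members summed to 4161, 4110 and 4127 CPM in the Control libraries, 2321, 2250 and 2302 after 5-FU+Saline, and 2805, 2798 and 2901 after 5-FU+FMT. The 3 groups did not overlap, with 5-FU+Saline lowest and 5-FU+FMT between. In bulk RNA, fewer cells of a type and less RNA per cell cannot be told apart. An exact permutation test of 3 against 3 libraries cannot give a p under 0.10, so no test of this sum is given. The summed heavy chain constant genes, most of them Igha and Ighm counts, ordered the groups in the same way. V counts per 100 counts of heavy chain constant genes were 27.1 ± 0.210 in Control, 26.1 ± 0.325 after 5-FU+Saline and 27.8 ± 0.0872 after 5-FU+FMT (SD, n = 3). Igha, the constant region of IgA, held 63.4 ± 0.203%, 67.7 ± 0.118% and 64.4 ± 0.116% of constant region counts in the same order. Ighm, that of IgM, held 27.1 ± 0.209%, 20.6 ± 0.0404% and 25.01 ± 0.200%. Single genes of the list of 12 constant and J genes did not all move with the sum. In 5-FU+Saline against Control 5 rose and 5 fell (edgeR, adjusted p under 0.05), where 65.5% of all genes tested were called. Igha, Ighm, Ighg1, Ighg2b and Ighg3 fell, while Ighd (2.04-fold), Ighg2c (1.33-fold) and the J segments Ighj1, Ighj3 and Ighj4 rose.

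A single segment accounted for most of the difference in the V total. Ighv1-9 (chromosome 12, 114583569 to 114584002) stood at 1647, 1625 and 1634 CPM in the Control libraries. It stood at 128, 125 and 126 CPM after 5-FU+Saline and at 599, 621 and 702 after 5-FU+FMT. All 3 groups were separate, and the 5-FU+FMT libraries spread more than the others. Ighv1-9 fell 12.9-fold in 5-FU+Saline against Control (log2 -3.69, SE 0.0332, edgeR adjusted p = 1.2e-79). In 5-FU+FMT it was 5.06-fold higher than in 5-FU+Saline (adjusted p = 1.58e-65) and 2.55-fold lower than in Control (adjusted p = 6.19e-53). Without it, the other 96 members summed to 2514, 2485 and 2494 CPM in Control, 2192, 2125 and 2175 after 5-FU+Saline, and 2206, 2177 and 2199 after 5-FU+FMT. The ranges of the 2 groups given 5-FU then overlapped, and their means were 86.66% and 87.87% of the Control mean.

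Segments differ in length, so levels of different segments are compared as shares: counts per kilobase of annotated exon, as a percent of their sum over the 97 members. By share, Ighv1-9 held 41.2% ± 0.0223 of V counts in Control, 5.803% ± 0.0367 after 5-FU+Saline and 23.7% ± 1.52 after 5-FU+FMT (SD, n = 3). It ranked first in Control and 5-FU+FMT and at rank 4 in 5-FU+Saline, where Ighv6-6 (6.94% ± 0.0819), Ighv1-26 (6.92% ± 0.338) and Ighv1-81 (6.34% ± 0.114) stood above it. Ighv6-6 and Ighv1-26 did not differ beyond their spread in 5-FU+Saline: Ighv1-26 led in replicates 1 and 2 and Ighv6-6 in replicate 3. Behind Ighv1-9 in Control came Ighv11-2 (4.57%), Ighv9-3 (3.27%), Ighv1-64 (2.84%), Ighv1-26 (2.75%) and Ighv1-72 (2.23%). In 5-FU+FMT the order behind it was Ighv11-2 (5.45%), Ighv1-26 (5.33%), Ighv1-81 (3.396%), Ighv1-53 (2.83%) and Ighv9-3 (2.801%). The shares of Ighv1-53 and Ighv9-3 differed by less than their SD (0.189 and 0.194 points). Those of Ighv1-64 and Ighv1-26 in Control differed by about their SD (0.0961 and 0.104 points).

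**Figure D1:**
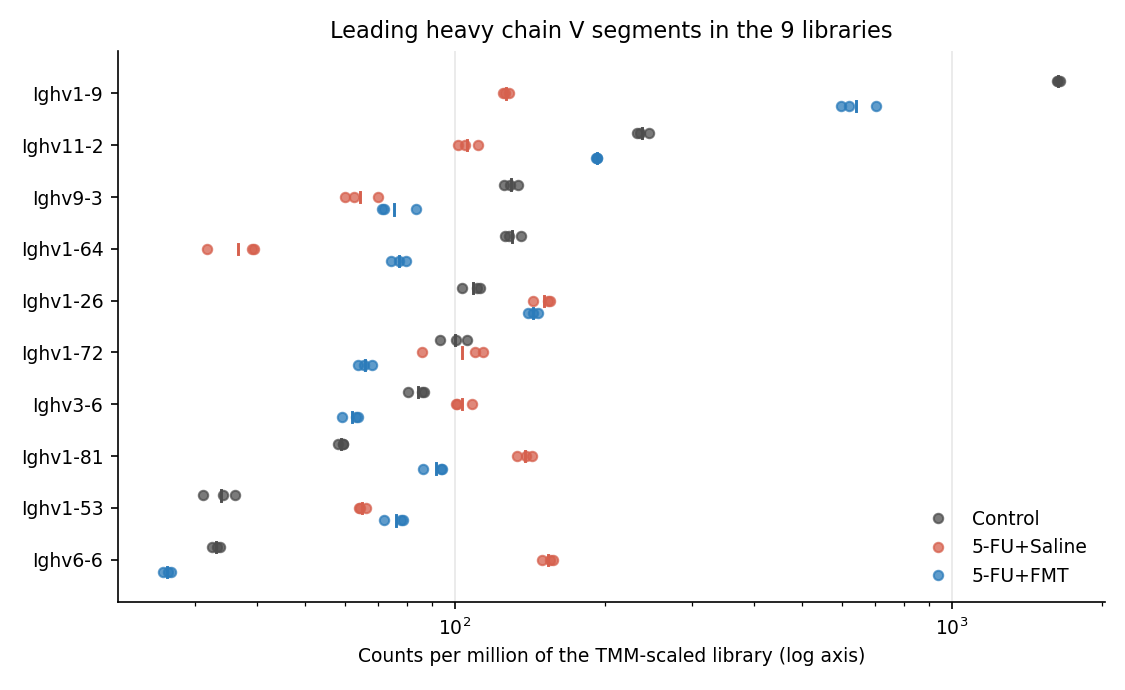
CPM of the 10 segments that were among the 6 largest shares in any group, on a log axis, with 1 dot for each of 9 libraries and a short bar for the mean of 3. Ighv1-9 lies between 1625 and 1647 CPM in Control, 599.0 and 701.8 in 5-FU+FMT and 125.1 and 128.5 in 5-FU+Saline, while Ighv6-6 and Ighv1-81 are highest in 5-FU+Saline.

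The change of Ighv1-9 was shared by genes of the lambda light chain, the less used of the 2 light chain types in mice. Iglc2, a lambda constant region gene, stood at 1781, 1694 and 1758 CPM in Control, 119, 116 and 109 after 5-FU+Saline and 657, 624 and 692 after 5-FU+FMT. Iglv2 is a lambda V segment that was picked with its values known. Its CPM was 2328, 2358 and 2289 in Control, 142, 129 and 138 after 5-FU+Saline and 866, 843 and 928 after 5-FU+FMT. For both genes the 3 groups were separate and in the same order as for Ighv1-9. The log2 fold of 5-FU+Saline against Control was -3.69 for Ighv1-9, -4.09 for Iglv2 (adjusted p = 1.97e-85) and -3.93 for Iglc2 (adjusted p = 8.88e-83). That of 5-FU+FMT against 5-FU+Saline was 2.34, 2.69 and 2.52. Per 100 Iglv2 counts there were 70.3 ± 1.26 Ighv1-9 counts in Control, 92.9 ± 3.27 after 5-FU+Saline and 72.8 ± 3.34 after 5-FU+FMT. Iglv3 and Iglc3 showed the same order of groups, with smaller folds in 5-FU+Saline against Control. Iglv3, picked with its values known, had means of 24.8 ± 1.16, 4.21 ± 0.395 and 17.9 ± 1.56 CPM in Control, 5-FU+Saline and 5-FU+FMT (log2 -2.56 in 5-FU+Saline against Control). Iglc3 had 196 ± 11.6, 37.4 ± 1.44 and 67.6 ± 0.690 CPM (log2 -2.38). Iglv1 and Iglc1 moved least: Iglv1, likewise picked with its values known, had means of 683 ± 8.97, 358 ± 10.9 and 389 ± 15.4 CPM in that order of groups, and Iglc1 of 209.7 ± 4.01, 209 ± 9.24 and 170.5 ± 3.10. Igkc, the kappa constant region, was at 4468 ± 62.1, 3421 ± 84.1 and 3558 ± 105 CPM. Lambda genes are close in sequence to one another, so reads between them may have been shared or left out. Counts of separate genes do not show which heavy and light chains came from the same cell.

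**Figure D2:**
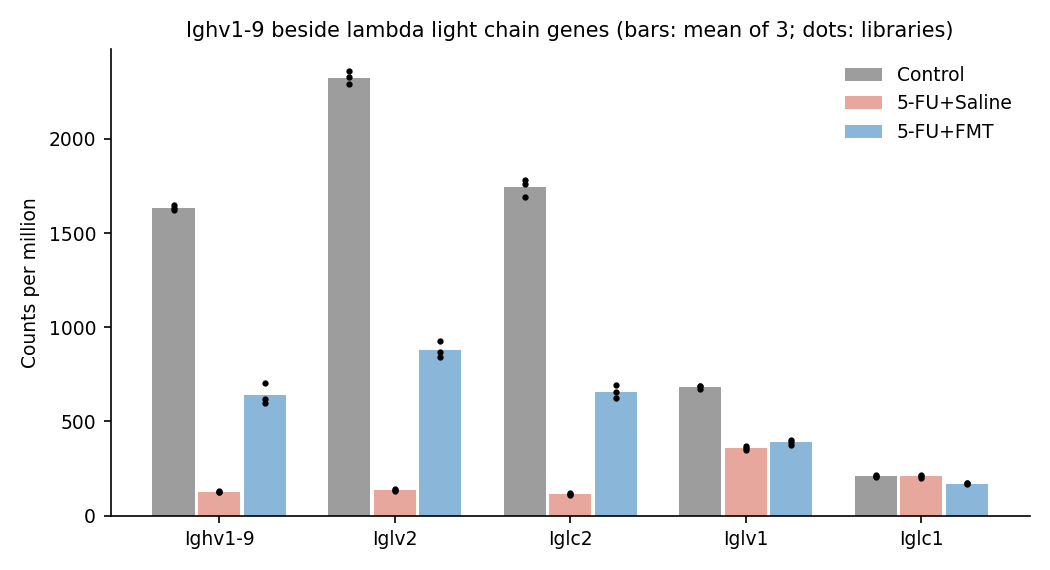
CPM of Ighv1-9 and 4 lambda light chain genes, with bars for the mean of 3 libraries of a group, dots for the libraries and a vertical axis from 0. Ighv1-9, Iglv2 and Iglc2 drop to between 108.7 and 141.6 CPM in 5-FU+Saline, while Iglc1 stays between 199.3 and 217.7 CPM there against 206.1 to 214.0 in Control.

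5-FU+Saline was first set against Control, that is, 5-FU followed by saline beside no treatment. Of the 97 members, 37 were higher and 47 lower at an edgeR adjusted p under 0.05, and 13 were not called. That is 86.6% of members, against 65.5% called of all 16595 genes tested (32.8% higher and 32.7% lower). The median log2 fold of the members was -0.265, against -0.0206 over all genes. In this and the other comparisons the median was the same with members at a floor set to their bound. CPM of the libraries did not overlap between the groups for 37 segments in the higher and 48 in the lower direction, 87.6% of members against 67.8% of genes. The count minimum can be passed on 1 group alone, and 10 of the 97 members would have been under 50 without the group where they were highest, so these counts describe the members and support nothing further. Ighv1-37, Ighv3-4, Ighv11-1 and Ighv13-2, treated below, are among these 10.

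Among called segments with a mean of at least 10 CPM in 1 of the groups compared and no overlap between their libraries, the largest rise was that of Ighv1-34 (114851190 to 114851660), from 1.64, 2.38 and 2.29 CPM in Control to 19.2, 16.03 and 18.2 in 5-FU+Saline (8.41-fold, adjusted p = 1.23e-28). Ighv6-6 rose from 33.2, 33.6 and 32.5 to 158, 149 and 156 CPM (4.66-fold, adjusted p = 5.39e-50). Ighv1-62-2 rose 7.03-fold, Ighv1-12 4.41-fold and Ighv2-3 3.65-fold, with no overlap between the libraries. Of the leading segments of 5-FU+Saline, Ighv1-81 rose from 59.6, 58.3 and 59.5 to 143, 134 and 139 CPM and Ighv1-26 from 112, 104 and 111 to 155, 154 and 143. Ighv1-72, known from antibodies of C57BL/6 mice to the hapten NP, stood at 106, 101 and 93.5 CPM in Control and 86.0, 109.7 and 114 in 5-FU+Saline (log2 0.05, SE 0.0552, adjusted p = 0.393), with overlapping libraries. Replicate 1 of 5-FU+Saline lay below both others in that segment. Ighv1-72 was lower in 5-FU+FMT, at 67.98, 63.8 and 65.6 CPM. Ighv1-53 rose in both groups given 5-FU, from 36.1, 31.2 and 34.2 CPM in Control to 64.6, 66.2 and 64.3 after 5-FU+Saline and 77.95, 78.7 and 72.2 after 5-FU+FMT.

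Several segments of Control were close to absent after 5-FU and saline. Ighv1-20 (114723772 to 114724205) stood at 12.8, 12.7 and 14.2 CPM in Control, from 577 counts, and had no count in any 5-FU+Saline library. Taking 3 counts over the group as the floor, it was at least 224-fold lower. Ighv15-2, the 1 member of its family (114564578 to 114565012), stood at 32.4, 31.6 and 29.2 CPM in Control, from 1326 counts, and had 3 counts in 5-FU+Saline, a ratio of 515-fold (95% counting interval 176 to 2502). Such intervals and floors cover counting error only. Ighv3-1 fell from 11.6, 10.9 and 10.9 to 0, 0.255 and 0.0516 CPM (103-fold, adjusted p = 5.71e-31). Ighv12-3, known with Ighv11-2 from B-1 cell antibodies to phosphatidylcholine, fell from 22.6, 22.1 and 25.2 to 2.51, 2.99 and 2.84 (8.37-fold, adjusted p = 4.21e-31). Ighv11-2 itself fell from 246, 235 and 232 to 111, 105 and 102 CPM (2.25-fold), a smaller fold on a higher level. Ighv1-64, one of the leading Control segments, fell from 136, 126 and 128 to 39.4, 31.7 and 39.03 CPM (3.54-fold). Further members with a group at or near 0 were picked with their values known. Ighv7-4 had 426 counts in Control and 3 in 5-FU+Saline, a ratio of 166-fold (95% counting interval 56.3 to 806), and Ighv3-4 had 48 and 0 (at least 18.6-fold lower). In the other direction, Ighv1-84 had 0 counts in Control and 232 in 5-FU+Saline (at least 66.3-fold higher), and Ighv1-36 had 0 and 110 (at least 31.4-fold higher).

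Between the groups given 5-FU, FMT was set against saline. In 5-FU+FMT 43 members were higher, 34 lower and 20 not called (edgeR, adjusted p under 0.05). That is 79.4% of members against 36.9% of all genes tested (17.7% higher and 19.2% lower), with a median log2 fold of 0.179 against 0.00981. Libraries did not overlap for 46 members in the higher and 39 in the lower direction, 87.6% of members against 46.3% of genes.

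Segments close to absent in 5-FU+Saline were present in 5-FU+FMT. This comparison and the one with Control share the 5-FU+Saline libraries, so a low level there enters both. Neither result is further support for the other. Ighv15-2 stood at 20.4, 20.6 and 21.1 CPM in 5-FU+FMT, from 904 counts, a ratio of 347-fold (95% counting interval 118 to 1685) to the 3 counts of 5-FU+Saline. Ighv1-20 stood at 8.81, 7.09 and 8.09 CPM in 5-FU+FMT, at least 134-fold above the floor of 5-FU+Saline. Ighv3-1 stood at 12.8, 9.901 and 11.3 CPM in 5-FU+FMT (105-fold above 5-FU+Saline, adjusted p = 1.84e-30). Against Control, Ighv3-1 in 5-FU+FMT gave a log2 fold of 0.03 (SE 0.149, adjusted p = 0.901), with overlapping libraries.

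Other rises over 5-FU+Saline went beyond the Control level. Ighv1-47 (114991108 to 114991580) stood at 21.8, 19.1 and 19.1 CPM in 5-FU+FMT, at 2.78, 2.80 and 3.36 in 5-FU+Saline and at 0.0746, 0.642 and 0.213 in Control, so that 5-FU+FMT lay above both other groups. It was 6.67-fold above 5-FU+Saline (adjusted p = 1.01e-24) and 69.6-fold above Control (adjusted p = 6.23e-34). Ighv9-2 stood at 21.9, 23.4 and 20.9 CPM in 5-FU+FMT, against 4.297, 2.74 and 4.34 in 5-FU+Saline and 4.77, 6.97 and 6.88 in Control. Ighv2-5 had 22.2, 19.9 and 23.4 CPM in 5-FU+FMT, against 4.16, 3.88 and 2.74 in 5-FU+Saline and 15.7, 15.96 and 17.2 in Control. For all of these segments the 5-FU+FMT libraries lay above those of both other groups. Ighv9-2 and Ighv2-5 were 5.77-fold and 6.16-fold above 5-FU+Saline. Ighv1-37, the near twin of Ighv1-20 printed above, was also picked with its values known and had 233 counts in 5-FU+FMT, 1 in Control and 0 in 5-FU+Saline. Its CPM in 5-FU+FMT was 5.21, 5.34 and 5.49, a ratio to Control of 230.0-fold (95% counting interval 40.9 to 9122). Ighv1-37 passed the count minimum on its 5-FU+FMT counts alone, so that ratio describes it and supports nothing further. Ighv1-20 was highest in Control and Ighv1-37 in 5-FU+FMT, and their sequences differ at 4 positions.

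By the same rule, the 5 largest falls from 5-FU+Saline to 5-FU+FMT were of segments higher in 5-FU+Saline than in Control. Here too the 5-FU+Saline libraries are shared. Ighv6-6 fell to 25.9, 26.5 and 26.9 CPM (5.84-fold, adjusted p = 1.27e-52). Ighv1-5 stood at 20.7, 17.9 and 17.01 CPM in Control, 41.6, 36.5 and 40.95 after 5-FU+Saline and 7.46, 7.87 and 7.01 after 5-FU+FMT. It fell 5.32-fold between the groups given 5-FU (adjusted p = 2.09e-33). Ighv1-63, Ighv1-74 and Ighv1-59 fell 4.33-, 3.73- and 3.41-fold. Each of these 5 segments was also lower in 5-FU+FMT than in Control, by 1.25- (Ighv6-6), 2.48- (Ighv1-5), 1.73- (Ighv1-63), 1.32- (Ighv1-74) and 2.69-fold (Ighv1-59).

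The third comparison, 5-FU+FMT against Control, shares its groups with both others, so its values are given side by side and not as further support. In 5-FU+FMT 33 members were higher than in Control, 45 lower and 19 not called (edgeR, adjusted p under 0.05), 80.4% of members against 46.6% of all genes tested (25.0% higher and 21.6% lower). The median log2 fold was -0.324 against -0.00659 over all genes. Libraries did not overlap for 32 members in the higher and 45 in the lower direction, 79.4% of members against 52.7% of genes. Below Control, Ighv12-3 stood at 6.75, 8.36 and 6.36 CPM (3.27-fold lower) and Ighv9-1 at 10.03, 11.4 and 11.9 CPM against 30.4, 28.2 and 33.1 in Control (2.77-fold lower). Ighv9-1 stood at 10.3, 8.21 and 9.65 CPM in 5-FU+Saline, and both groups given 5-FU overlapped there. Above Control, Ighv1-34 stood at 15.9, 14.9 and 12.3 CPM (6.79-fold higher), and Ighv2-9-1 at 20.8, 19.5 and 20.5 against 7.31, 8.25 and 7.84 in Control (2.603-fold). Ighv1-12 was 3.46-fold higher. Ighv1-84, at 0 counts in Control, had 272 in 5-FU+FMT (at least 89.5-fold higher).

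By mean CPM, 5-FU+FMT lay between the other groups for 50 of the 97 segments, below both for 27 and above both for 20. Control was the highest group for 42 segments, 5-FU+Saline for 35 and 5-FU+FMT for 20. In each comparison most members were called, in both directions, while the V total also differed.

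Each library was also scaled to its own summed V counts, so that a fold is that of a segment's share. Against Control, 58 members had a higher and 31 a lower share in 5-FU+Saline, where 79.4% of all genes were called on this scale (72.8% higher and 6.60% lower). Against 5-FU+Saline, 32 were higher and 46 lower in 5-FU+FMT (59.5% of genes, 5.70% higher and 53.8% lower), and against Control 47 were higher and 18 lower in 5-FU+FMT (70.9%, most of them higher at 67.9%). These splits rest on Ighv1-9, whose large share lowers those of all others. With Ighv1-9 left out of the scale, a choice made after seeing the data, they became 43 higher and 42 lower (67.2% of genes, 45.3% and 21.9%), 43 and 35 (36.9%, 16.0% and 21.0%), and 39 and 40 (53.0%, 42.4% and 10.6%). Folds on the library scale are therefore used for single segments throughout.

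**Figure D3:**
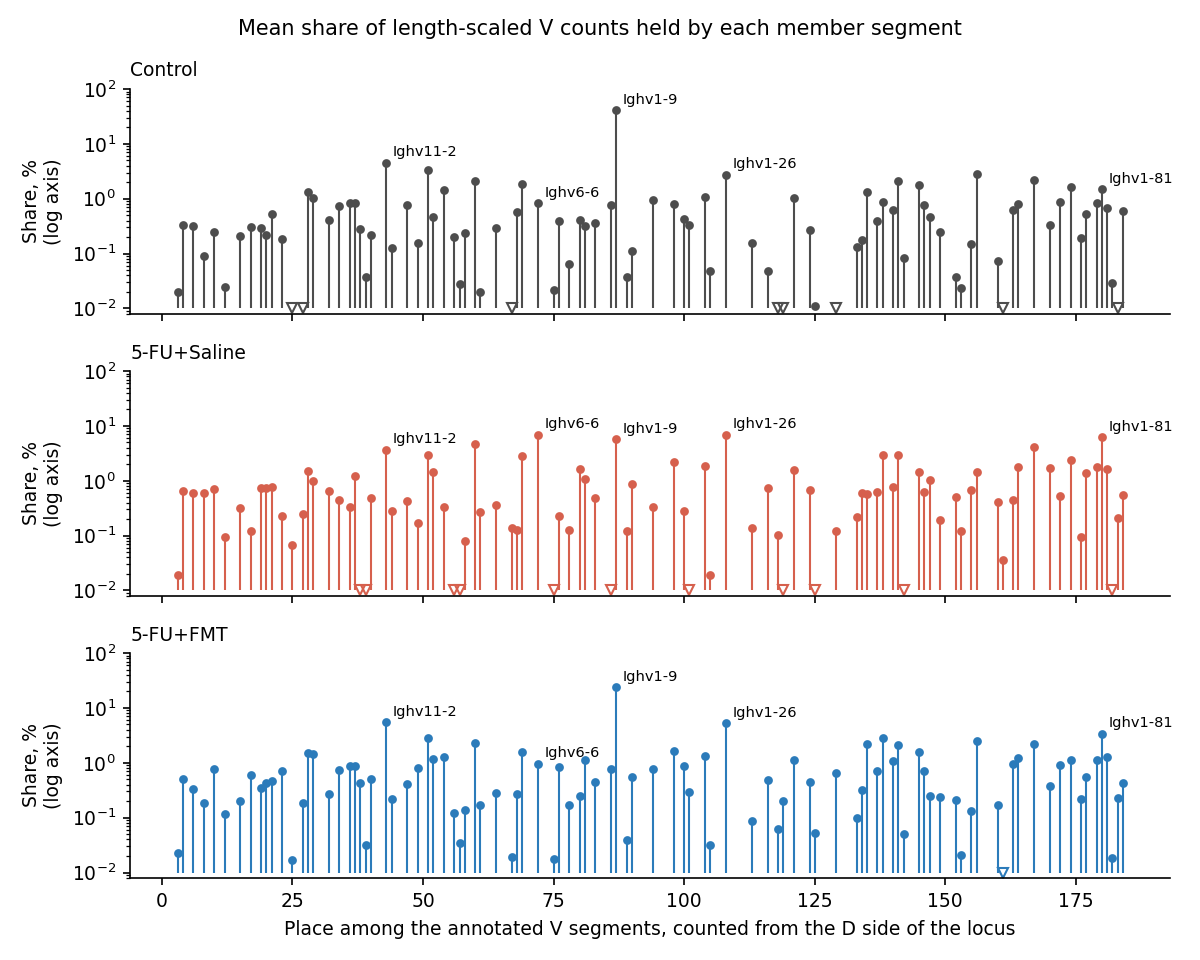
Mean share of length-scaled V counts in percent (log axis) for each of the 97 segments in the 3 groups, placed by order among the annotated V segments from the D side outward; open triangles mark shares under 0.01%. Ighv1-9 stands alone in Control at 41.2% and in 5-FU+FMT at 23.7%, while in 5-FU+Saline, at 5.80%, it lies below Ighv6-6, Ighv1-26 and Ighv1-81.

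Evenness differed between the groups. The effective number of segments (the exponential of Shannon entropy, which is the number of equally used segments that would give the same evenness) was 19.8 ± 0.116 in Control, 46.4 ± 0.221 after 5-FU+Saline and 36.6 ± 1.52 after 5-FU+FMT. The inverse Simpson index, which weighs common segments more, was 5.57 ± 0.00917, 31.6 ± 0.204 and 14.01 ± 1.24. In Control 4 segments held 50% of V counts, against 11 to 12 after 5-FU+Saline and 9 to 10 after 5-FU+FMT. Without Ighv1-9 the effective number became 50.7 in Control, 46.4 after 5-FU+Saline and 54.7 after 5-FU+FMT, so the order of the groups rests on that segment. At a common depth of 35105 V counts, 92.2 ± 0.615 members were expected to be seen in Control, 89.8 ± 0.768 after 5-FU+Saline and 96.6 ± 0.540 after 5-FU+FMT. By this measure 5-FU+FMT libraries held the most segments (95.98 to 97) and 5-FU+Saline the fewest (89.0 to 90.5). The members were chosen on the sum of all groups, and over all 185 rows the corresponding numbers were 112 ± 0.666, 101 ± 1.76 and 114 ± 3.31, with Control and 5-FU+FMT overlapping.

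Members came from 15 of the 16 annotated families. Ighv1, the largest with 51 members, held 70.2% ± 0.179 of V counts in Control, 58.5% ± 0.284 after 5-FU+Saline and 64.6% ± 0.491 after 5-FU+FMT. Without Ighv1-9 its shares were 49.4%, 55.96% and 53.6%, which reverses the order of Control and 5-FU+Saline. In 5-FU+Saline against Control, the library ranges did not overlap for 14 families, 9 of them higher and 5 lower. Only Ighv9 overlapped. Among the 9 is Ighv13, whose 1 member, Ighv13-2, passed the count minimum only through 5-FU+Saline. Its ranges here and in 5-FU+FMT against 5-FU+Saline describe it and support nothing further. In 5-FU+FMT against 5-FU+Saline, 7 were higher and 6 lower, with Ighv2 and Ighv9 overlapping. In 5-FU+FMT against Control, 7 were higher and 3 lower, and Ighv3, Ighv4, Ighv9, Ighv13 and Ighv15 overlapped. By CPM of single genes, which is another measure, libraries did not overlap for 67.8%, 46.3% and 52.7% of all genes tested in these comparisons. Family shares are parts of 1 total, so a lower share of Ighv1-9 raises the rest. Without Ighv1-9, some mean shares turned from higher to lower. From Control to 5-FU+Saline, Ighv5 went from 6.783% to 6.264%, Ighv7 from 2.362% to 1.991% and Ighv8 from 4.758% to 4.072%. Ighv4 also turned, by less than its Control SD, while Ighv2, Ighv3, Ighv6, Ighv10 and Ighv13 stayed higher. From Control to 5-FU+FMT, Ighv11 (7.835% to 7.187%), Ighv14 (4.49% to 3.786%) and Ighv8 turned, while Ighv2, Ighv5, Ighv7 and Ighv10 did not.

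The families that differed most were small. Ighv6 held 2.71% ± 0.0160 in Control, 9.805% ± 0.150 after 5-FU+Saline and 2.54% ± 0.0768 after 5-FU+FMT. Both of its members were given sequences above, and they went different ways. Ighv6-6 rose in 5-FU+Saline, while Ighv6-3 stood at 77.3, 74.3 and 76.7 CPM in Control and fell to 65.97, 64.5 and 59.5 in 5-FU+Saline (1.21-fold, adjusted p = 1.5e-05). In 5-FU+FMT Ighv6-3 stood at 43.4, 43.7 and 41.8 CPM, below both other groups. Ighv15, which is Ighv15-2, held 0.7699% ± 0.0401 in Control, 0.00273% after 5-FU+Saline and 0.756% ± 0.00613 after 5-FU+FMT. Ighv12, which is Ighv12-3, held 0.584%, 0.127% and 0.264%. Ighv13, which is Ighv13-2, ran the other way at low level, with 0.597, 0.0917 and 0.107 CPM in Control, 3.44, 2.10 and 3.77 after 5-FU+Saline and 0.4502, 0.281 and 0.867 after 5-FU+FMT. Ighv13-2 passed the count minimum only through 5-FU+Saline, so these values describe it and support nothing further.

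Ighv14 held 2.64% ± 0.0522 in Control, 1.43% ± 0.0444 after 5-FU+Saline and 2.88% ± 0.116 after 5-FU+FMT. Its leading member Ighv14-4 was at 59.3, 58.2 and 54.3 CPM in Control, 8.46, 6.62 and 7.07 after 5-FU+Saline and 34.2, 32.1 and 38.1 after 5-FU+FMT, with no overlap between groups. That was a fall of 7.76-fold and a rise of 4.72-fold (adjusted p = 1.02e-42 and 5.95e-33). Of the 4 Ighv14 members, 2 fell in 5-FU+Saline against Control, 0 rose and 2 were not called. Ighv11 held 4.604%, 3.696% and 5.48%, nearly all of it Ighv11-2. Ighv11-1 had 61, 2 and 37 counts in the 3 groups although it differs from Ighv11-2 at 4 of 296 bases. Ighv10 had shares of 0.709%, 1.31% and 1.94%, highest in 5-FU+FMT. Its leading member Ighv10-3 was at 15.4, 12.8 and 12.9 CPM in Control, 27.4, 21.3 and 27.6 after 5-FU+Saline and 31.1, 31.2 and 33.7 after 5-FU+FMT. The other member, Ighv10-1, fell 3.13-fold in 5-FU+Saline against Control (edgeR adjusted p = 8.83e-20). Its CPM means were 15.8, 5.05 and 23.0 in the 3 groups. Summed over the family, CPM was 29.4 ± 2.44, 30.5 ± 3.50 and 55.05 ± 1.94.

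Families are described further in the order Control, 5-FU+Saline and 5-FU+FMT. Ighv5, with 9 members, held 3.99%, 5.90% and 5.23%, and its leading member Ighv5-16 fell 1.61-fold in 5-FU+Saline by CPM. Ighv2, with 8 members, held 1.55%, 3.14% and 2.83%. Its leading member Ighv2-2 was not called in any comparison, with 12.98, 13.8 and 12.1 CPM in Control, 14.3, 15.1 and 13.2 after 5-FU+Saline and 14.7, 13.5 and 13.5 after 5-FU+FMT and log2 folds between -0.02 and 0.14. Ighv3 held 2.96%, 5.19% and 3.19%: Ighv3-6 rose 1.23-fold in 5-FU+Saline while the other 4 members fell. Ighv7 held 1.39%, 1.88% and 2.001%, and Ighv7-3 stood higher in both groups given 5-FU (1.71-fold and 1.71-fold over Control). Ighv8 held 2.796%, 3.84% and 3.15%, with Ighv8-8 2.27-fold lower in 5-FU+Saline than in Control. Ighv4, which is Ighv4-1, held 0.822%, 1.21% and 0.876%, although its CPM fell 1.23-fold in 5-FU+Saline. Ighv9, with 4 members, held 4.22%, 3.82% and 4.20%. That near-constant share hid a fall, since its summed CPM was 167 ± 5.03, 83.4 ± 7.96 and 113 ± 7.14. Without Ighv1-9 its share was 7.18%, 4.05% and 5.51%. Ighv9-3 fell from 126, 134 and 129 CPM in Control to 70.1, 60.2 and 62.6 in 5-FU+Saline (2.02-fold). It stood at 71.2, 72.05 and 83.5 in 5-FU+FMT, the group where Ighv9-2 was highest.

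**Figure D4:**
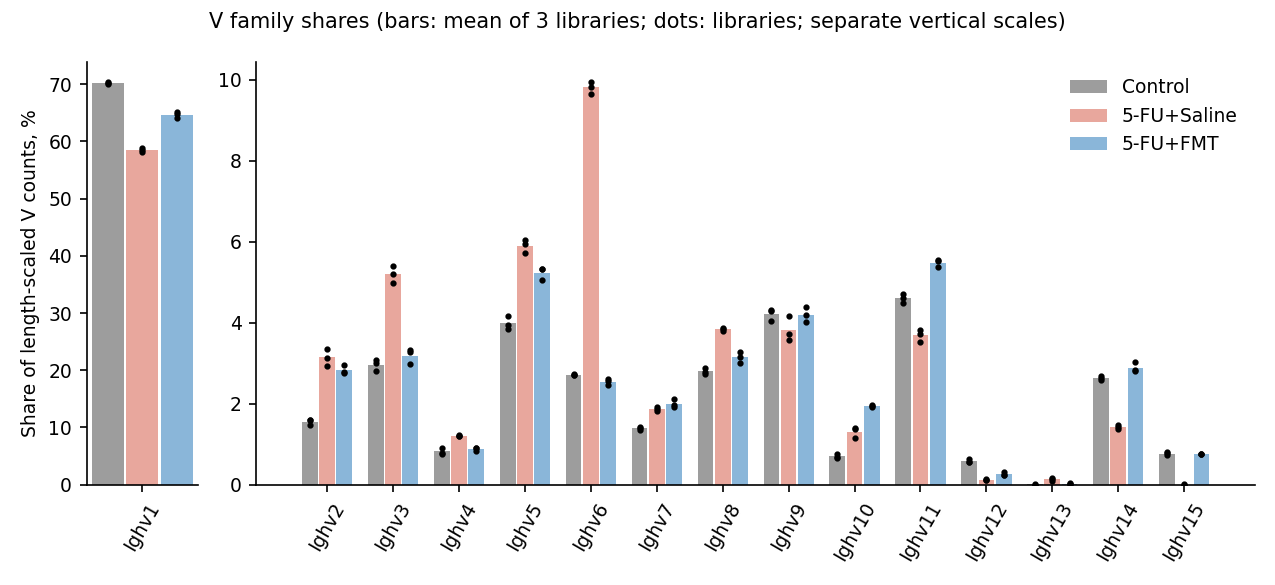
Share of length-scaled V counts in percent by family, with Ighv1 on its own vertical scale; bars are means of 3 libraries, dots are libraries, and axes start at 0. Ighv6 reaches 9.81% in 5-FU+Saline against 2.71% in Control and 2.54% in 5-FU+FMT, while Ighv15 and Ighv14 are lowest in 5-FU+Saline.

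Position along the array was not used to choose the members. The 185 annotated segments were put in 4 bins in order from the D side outward, with 46 or 47 each. The nearest bin, 113572927 to 114094358, held 13.9% of V counts in Control, 15.9% after 5-FU+Saline and 17.6% after 5-FU+FMT. The second bin, which contains Ighv1-9, held 55.3%, 30.8% and 39.9%. The third held 10.7%, 19.9% and 19.5%, and the farthest 20.1%, 33.4% and 23.03%. Without Ighv1-9 the nearest bin held 23.7%, 16.9% and 23.1%, and the second 23.9%, 26.5% and 21.1%. On that basis the third held 18.2%, 21.1% and 25.6%, and the farthest 34.2%, 35.5% and 30.2%. With that segment out, 5-FU+Saline had the lowest share nearest to the D segments, where Control and 5-FU+FMT were alike within 1 point. In the other bins Control and 5-FU+FMT lay further apart, most of all in the third.

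The profile of shares set libraries of a group close together. Pearson's r across the 97 segments was 0.994 to 1.00 within groups (9 pairs). Between groups it was 0.962 to 0.979 for Control and 5-FU+FMT, 0.557 to 0.603 for 5-FU+Saline and 5-FU+FMT, and 0.439 to 0.446 for Control and 5-FU+Saline. Without Ighv1-9 these became 0.875 to 0.902, 0.751 to 0.783 and 0.673 to 0.679, in the same order, and stayed at 0.994 to 0.998 within groups. The share of V counts that both profiles of a pair hold in common was 95.25% to 97.9% within groups, 76.2% to 80.2% for Control and 5-FU+FMT, 65.5% to 68.5% for 5-FU+Saline and 5-FU+FMT, and 53.7% to 55.0% for Control and 5-FU+Saline. These are descriptions across segments of the same libraries, and segments are not independent replicates.

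**Figure D5:**
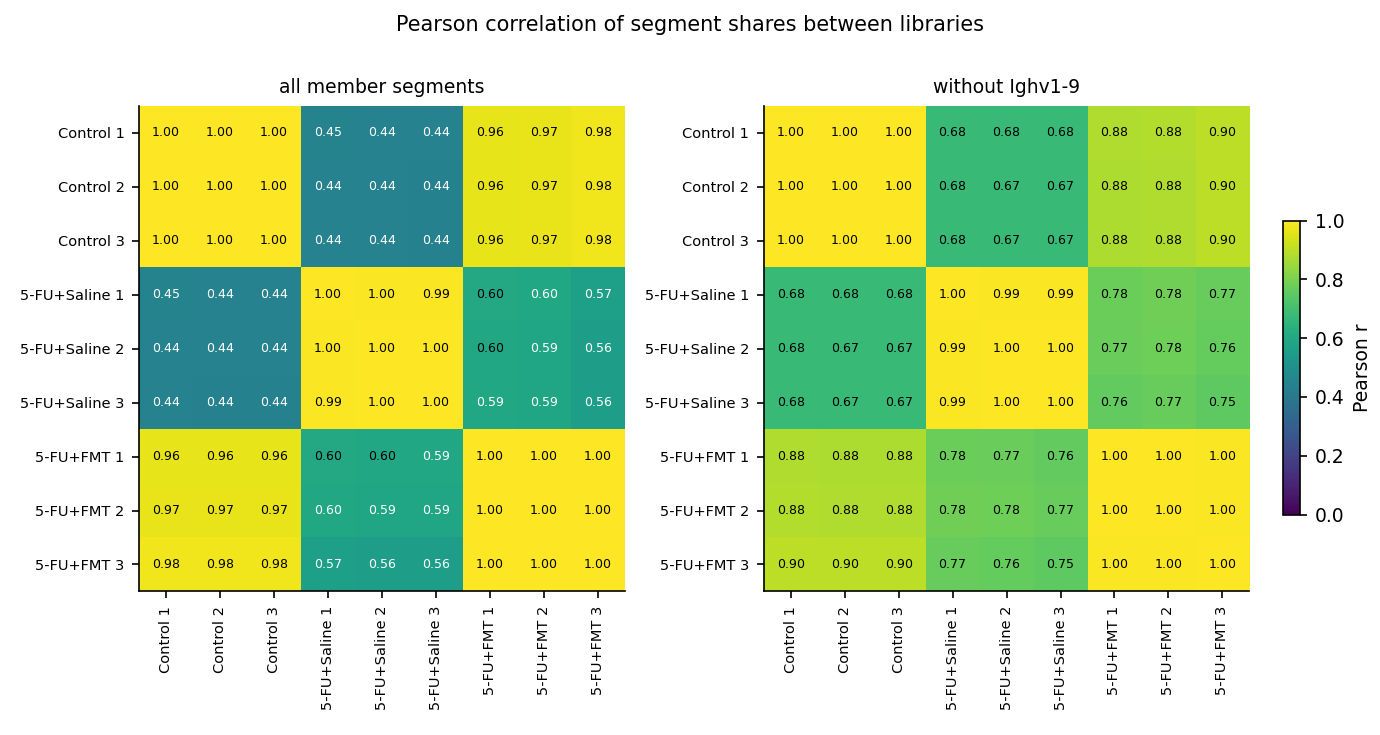
Pearson correlation of segment shares for each pair of the 9 libraries, over all 97 segments (left) and over 96 without Ighv1-9 (right); both axes list the libraries. Libraries of a group lie at 0.99 or above in both panels, and Control with 5-FU+Saline gives the lowest values, 0.44 to 0.45 on the left and 0.67 to 0.68 on the right.

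Genes of the cells that could carry V segment RNA differed between the groups. Their part in the V segment results was not tested. Over all 16595 genes tested, 65.5% were called in 5-FU+Saline against Control (32.8% higher and 32.7% lower). In 5-FU+FMT against 5-FU+Saline 36.9% were called (17.7% higher and 19.2% lower). Counts of called genes in the lists below stand beside these shares and are a description. Of the 14 early B cell genes, 13 rose and 1 fell in 5-FU+Saline against Control (edgeR, adjusted p under 0.05). Rag1, a recombinase subunit, stood at 1.96 ± 0.382 CPM in Control, 66.7 ± 2.87 after 5-FU+Saline and 29.2 ± 3.45 after 5-FU+FMT, and Igll1, a part of the surrogate light chain of pre-B cells, at 0.308 ± 0.221, 149 ± 4.89 and 68.1 ± 7.41. Of the 16 plasma cell genes, 4 rose and 9 fell. Jchain stood at 2694 ± 55.7 CPM, 1497 ± 24.7 and 1820 ± 22.7. In 5-FU+FMT against 5-FU+Saline, 1 early B cell gene rose and 13 fell, while 5 plasma cell genes rose and 4 fell. Of the 10 mature B cell genes, 6 rose and 1 fell in 5-FU+Saline against Control, so calls were about as frequent as over all genes. Among those that rose were Cd22 (14.98-fold), Fcmr (12.2-fold) and Ms4a1 (6.41-fold), all from under 2 CPM in Control. The sum of the 10 genes, 211.7 to 233.8 CPM over all libraries, was mostly Cd37, which fell 1.23-fold. Of the 9 T and NK cell genes, 6 rose and 2 fell, with a sum of 65.9 to 89.7 CPM. Nkg7, the largest part of it in Control, fell 1.77-fold. In 5-FU+FMT against 5-FU+Saline, 0 mature B cell genes rose and 6 fell, and 1 T or NK cell gene rose and 1 fell. By summed level, early B cell genes were lowest in Control, where V segment RNA and Jchain were highest. They were highest in 5-FU+Saline, where V segment RNA and Jchain were lowest. Single genes of both lists went other ways. Bcl11a of the early B cell list was highest in Control (289 ± 5.65 CPM). Pou2af1 of the plasma cell list rose 3.295-fold in 5-FU+Saline against Control. Which cells held the V segment RNA was not tested.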

How the data were processed

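RNA-seq (Trizol RNA, NEBNext Ultra II libraries, paired NovaSeq reads) was read as raw gene counts from 9 deposited tables, 1 per library. Per the submitters' processing notes, the authors used Trim Galore 0.6.5, HISAT2 2.2.1, SAMtools and featureCounts 2.0.1 on mm10. Per the file headers, counts are of read pairs over GENCODE vM25 exons, from alignments named as unique pairs, with no strand or multi-mapping option. Reads shared by near-identical segments may therefore be lost, and antisense reads are not told apart.

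Symbols came from the supplied name tables (55141 of 56262 rows matched). The rule for members and the gene lists were chosen with earlier results of these data known. Counts were tested with edgeR 4.0.16 in R 4.3.3 (TMM scaling, filterByExpr, quasi-likelihood test, all 9 libraries in 1 fit by group, Benjamini-Hochberg adjustment over 16595 genes, called at adjusted p under 0.05). The SE of a log2 fold is the fold divided by the square root of F. All 97 members passed the filter. Total counts of 11098031 to 19270976 per library set the counting precision. Floors use 3 counts over a group, and exact intervals are at 95%. V exons came from GENCODE transcripts and were aligned with Biopython 1.88. Simulated data were used to test the fit. Named members are the 6 largest shares of each group, the 5 largest called folds per direction with a mean of at least 10 CPM in 1 of the groups compared and no overlap, the leader of each family and those nearest the threshold. Others are said to be picked with values known. DESeq2 1.42.0, other scalings and filters, a replicate block and leaving out libraries were tried as alternatives.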

Additional observations from a re-analysis of the deposited data

How the results depend on the processing

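On the library scale, no called member reversed under any alternative run (upper-quartile or RLE factors, library size without immunoglobulin genes, no filter or a stricter one, DESeq2, a fit of 2 groups, and each library left out), and 0 to 7 calls were lost per setting. Without 1 library, the members called higher and lower were 35 to 38 and 46 to 49 (5-FU+Saline against Control), 41 to 43 and 30 to 34 (5-FU+FMT against 5-FU+Saline), and 31 to 34 and 41 to 45 (5-FU+FMT against Control). Relative to the V total they were 55 to 58 and 30 to 32, 30 to 33 and 42 to 47, and 46 to 49 and 15 to 19. Same-numbered libraries did not deviate together (correlations of -0.0173 to 0.0194 over 9 pairs), and the replicate block gave 37 and 47, 43 and 34, and 33 and 45 calls on the library scale, with 1 call lost relative to the V total. Depth limits the lowest members: a stricter filter tested 82 of the 97.

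With Ighv1-9 out of the V total, 40 members were called lower in share in 5-FU+FMT against Control. By construction that removes the largest share, and these share folds (log2) turned: Ighv2-9-1 -0.40, Ighv4-1 -0.087, Ighv5-16 -0.48 and Ighv9-2 -0.50 in 5-FU+Saline against Control. Likewise Ighv1-53 0.21, Ighv5-16 0.26 and Ighv9-3 0.21 turned in 5-FU+FMT against 5-FU+Saline, and Ighv11-2 -0.11, Ighv3-6 -0.25, Ighv4-1 -0.27, Ighv5-16 -0.22 and Ighv6-6 -0.14 in 5-FU+FMT against Control. The effective number of segments in Control was 20.6 with raw counts, 20 over all Ighv rows, 19.3 with a count sum of 500 or more and 50.7 without Ighv1-9. In 5-FU+Saline it was 46.65 with raw counts, 44.7 with a count sum of 500 or more and 47.1 without its leading segment, and in 5-FU+FMT 54.7 without Ighv1-9. Without 1 library it was 19.7 to 19.8, 46.2 to 46.4 and 35.97 to 37.45 in Control, 5-FU+Saline and 5-FU+FMT.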
